A study of Mus musculus with 6 samples.

Results

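The 36 cell proliferation genes described here are a list of gene names, drawn up with earlier results of these data known, and all 36 were found among the 54356 genes of the mouse data. They fall into 4 roles: 3 D-type cyclins, 3 genes of entry from G1 into S phase (Ccne1, Ccne2 and E2f1), 10 genes of S phase (Pcna, Mcm2 to Mcm7, Tyms, Rrm1 and Rrm2) and 20 genes of G2 and mitosis. All 36 passed the filter on low counts, which kept 17852 genes. RNA was measured by poly(A) RNA-seq in whole epididymal white adipose tissue, the visceral fat pad beside the testis, of 20-week-old male wild-type C57BL/6N mice. The cold group held 3 mice (numbers 7, 12 and 16) housed singly for 24 h at 4 °C up to dissection, and the ctrl group held 3 mice (numbers 5, 6 and 10). General housing was at 22 to 24 °C, but the treatment text describes the cold stay for all 6 samples, so the groups rest on the labels ctrl and cold, and no source used here says whether the ctrl mice were also kept alone. Each library is 1 mouse.

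A dividing cell switches these genes on in turn. D-type cyclins bind Cdk4 and Cdk6 and lead to phosphorylation of the retinoblastoma protein, which frees E2F factors to switch on cyclin E and the genes of DNA synthesis. A later wave of genes for chromosome condensation, spindle assembly and cell division follows in G2 and is shut off again in G1 and in resting cells. Mature fat cells do not divide, so in adipose tissue the late genes are read mainly as a trace of dividing progenitors, immune cells and vessel cells, while D-type cyclins are also made by cells outside the cycle.

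Total estimated counts were 19735167 to 28608052 per library, and the 36 genes together took 14086 to 20389 of them. The 8 adipocyte markers summed to 31020 to 35370 CPM (counts scaled to library size) in each library, as the labelled tissue should show. By the test used below, 1 of the 8 was higher in cold and 1 lower. Markers of other tissues differed between the groups: 8 epithelial markers summed to 25.2, 6.62 and 7.09 CPM in ctrl 5, 6 and 10 and to 107, 195 and 179 CPM in cold 7, 12 and 16, with 4 of 8 higher in cold by the test used below. The 10 motile cilium markers summed to 30.6, 7.69 and 6.37 CPM in ctrl and to 65.3, 195 and 162 CPM in cold, with 4 of 10 higher, and Dnah5 and Spag17 were at 0 in at least 1 library. Ctrl 5 thus stood above the other controls, and cold 7 below the other cold libraries, in both lists. The part of this tissue difference in any value below was not tested.

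D-type cyclins and Pcna made up most of the proliferation RNA of this fat pad, and the 20 mitotic genes each averaged between 0.314 and 5.99 TPM. Levels between genes are compared here in TPM (transcript abundance scaled for length and depth), as means of the 6 libraries. Ccnd3, cyclin D3, was the highest at 136.4 TPM (range 115 to 146) and stood above all other members in every library. Ccnd2 followed at 58.7 TPM (45.3 to 69.7) and Pcna, the sliding clamp of DNA polymerases, at 58.4 TPM (51.3 to 63.6), and these neighbours overlapped. Mcm7, a subunit of the replicative helicase, was at 27.5 TPM and Ccnd1 at 25.8 TPM, again with overlapping ranges. The transcript Mcm7-201 held 44.3% of the Mcm7 TPM but 78.5% of its counts, so the place of Mcm7 in this order is uncertain. Of the 35 pairs of neighbours in the order, only Ccnd3 over Ccnd2, Pcna over Mcm7 and Ccnd1 over Rrm1 had ranges that did not overlap.

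Below these 5 genes the levels went down without a further gap. Rrm1, the large subunit of ribonucleotide reductase, was at 11.5 TPM, the transcription factor gene E2f1 at 9.18 TPM and the other helicase subunits between 4.15 (Mcm2) and 8.80 TPM (Mcm6). The highest G2 and mitosis gene was Ube2c, the ubiquitin-conjugating enzyme of the anaphase-promoting complex, at 5.99 TPM. Mki67, the gene of the Ki-67 antigen, was at 0.898 TPM, and Kif11 (0.741 TPM), Cenpf (0.589 TPM) and Bub1 (0.314 TPM) were lowest. For Cenpf, the transcript Cenpf-202 held 34.0% of the TPM but 1.79% of the counts, and Cenpf-204 held 56.0% and 95.3%. Cenpf-204 alone was at 0.195 to 0.281 TPM in the 6 libraries. The order of Cenpf and Bub1 within the lowest genes is thus uncertain. In all, 23 of the 36 genes were under 5 TPM. The median was 58.7 TPM for the D-type cyclins, 3.68 for G1/S entry, 7.61 for S phase and 2.01 for G2 and mitosis. Of the summed TPM of the 36 genes, the 3 D-type cyclins held 52.9%, the 10 S phase genes 33.2% and the 20 G2 and mitosis genes 9.92%. In bulk tissue, fewer cells in cycle and less RNA per cell cannot be told apart.

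**Figure D1:**
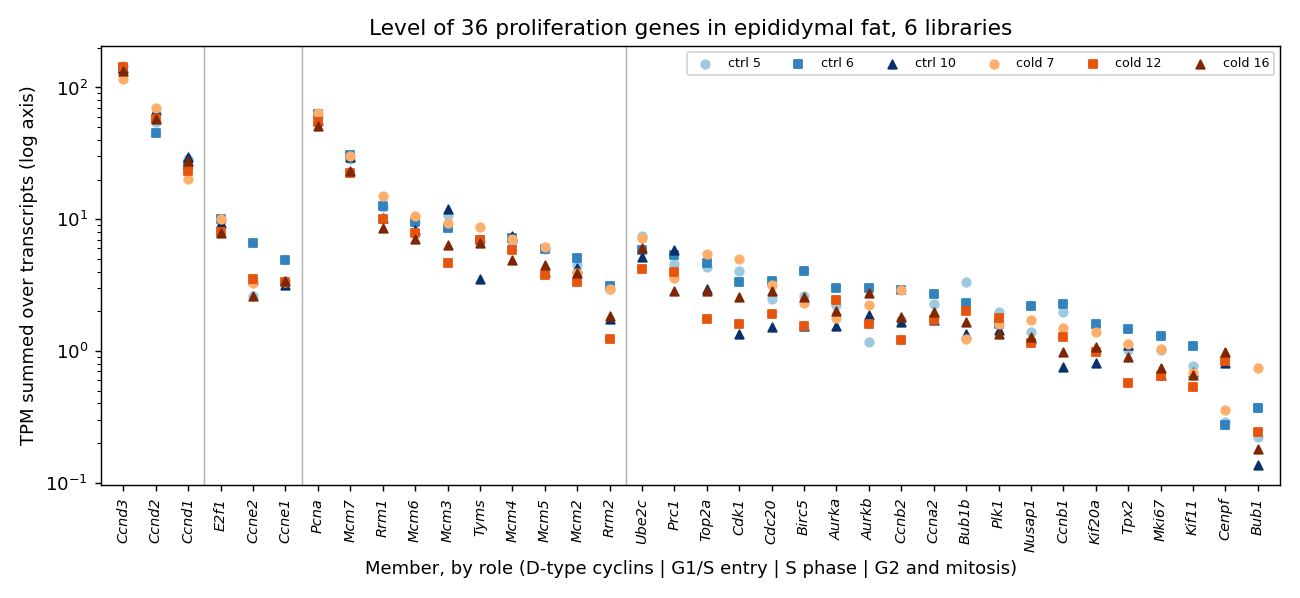
Level of each of the 36 genes in TPM (log axis) in the 6 libraries, 1 point per mouse, with genes ordered by role and level. Ccnd3 sits highest at 115 to 146 TPM, and the genes of G2 and mitosis lie lowest, down to Bub1 with a mean of 0.314 TPM.

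The S phase and mitosis genes differed in part in the motifs of their promoters, which are shown because they are not measured from RNA. RefSeq promoter windows of build GRCm38.p6, from 250 bases before to 50 after a start site, were searched on both strands for 3 kinds of short motif. These were the CCAAT box (CCAAT, or ATTGG on the other strand), the CHR element of late cell cycle genes (TTTGAA, or TTCAAA), and an E2F-like site (TTTCCCGC, TTTGGCGC, TTTCGCGC or TTTGCCGC). Windows were found for 28 of the 36 genes, 31 windows in all; Ccnd1, Ccnd2, Ccne2, Mcm4, Ccna2, Aurkb, Kif20a and Tpx2 were not matched. A CHR was in 13 of the 17 windows of G2 and mitosis genes and in 1 of the 10 windows of S phase genes (Mcm2), beside 17.9% of all 32851 windows. Counted per window, 12 of the 17 CHR matches of G2 and mitosis genes lay from 50 bases before to 50 after the start, and the farthest began 179 bases before it. An E2F-like site was in 4 of 10 S phase windows (Mcm3, Mcm5, Mcm6 and Mcm7) and in 1 of 17 G2 and mitosis windows (Cdk1), beside 2.26% of all windows. CCAAT was common in both waves, in 9 of 10 and 15 of 17 windows, beside 37.4% of all windows. The 2 windows of G1/S entry genes (Ccne1 and E2f1) held 0 matches of any of the 3 kinds. A match of letters is a description and not a bound site, and windows of 1 gene can overlap.

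The 160 bases before the RefSeq start site are printed 5′ to 3′ on the gene's strand for 2 S phase genes with an E2F-like site and 4 mitosis genes with a CHR. Capitals mark the motifs, and where E2F-like letters on the 2 strands overlap the whole run is in capitals.
Mcm5 (chr8:75109349-75109508, plus strand): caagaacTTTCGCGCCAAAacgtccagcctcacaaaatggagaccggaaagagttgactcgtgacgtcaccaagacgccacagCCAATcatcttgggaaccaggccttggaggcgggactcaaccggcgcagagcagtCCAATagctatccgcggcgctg
Mcm6 (chr1:128359706-128359865, minus strand): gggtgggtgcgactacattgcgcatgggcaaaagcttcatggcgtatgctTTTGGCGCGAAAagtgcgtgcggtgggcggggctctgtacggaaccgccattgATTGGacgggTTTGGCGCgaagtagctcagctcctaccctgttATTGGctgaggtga
Cdk1 (chr10:69352913-69353072, minus strand): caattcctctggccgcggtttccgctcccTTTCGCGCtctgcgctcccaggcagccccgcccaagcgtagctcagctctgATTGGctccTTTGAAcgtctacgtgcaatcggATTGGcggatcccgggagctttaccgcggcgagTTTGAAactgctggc
Cdc20 (chr4:118437344-118437503, minus strand): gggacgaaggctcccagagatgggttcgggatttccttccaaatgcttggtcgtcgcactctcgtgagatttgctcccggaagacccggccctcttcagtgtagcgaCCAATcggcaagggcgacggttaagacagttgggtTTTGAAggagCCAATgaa
Kif11 (chr19:37376222-37376381, plus strand): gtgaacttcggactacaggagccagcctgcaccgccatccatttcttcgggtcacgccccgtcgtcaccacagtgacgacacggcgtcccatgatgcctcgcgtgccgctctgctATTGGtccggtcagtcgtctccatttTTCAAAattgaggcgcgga
Top2a (chr11:99024190-99024349, minus strand): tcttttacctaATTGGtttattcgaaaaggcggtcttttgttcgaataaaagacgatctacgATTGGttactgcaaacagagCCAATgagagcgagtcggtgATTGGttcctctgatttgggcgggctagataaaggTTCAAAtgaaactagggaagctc
Cdk1, the kinase that drives mitosis, has all 3 kinds. Cdc20, an activator of the anaphase-promoting complex, Kif11, a spindle motor, and Top2a, the topoisomerase that untangles chromosomes, have at least 1 CCAAT box and a CHR in the printed run. Mcm5 and Mcm6, helicase subunits, have E2F-like letters and CCAAT boxes and no CHR in these windows.

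**Figure D2:**
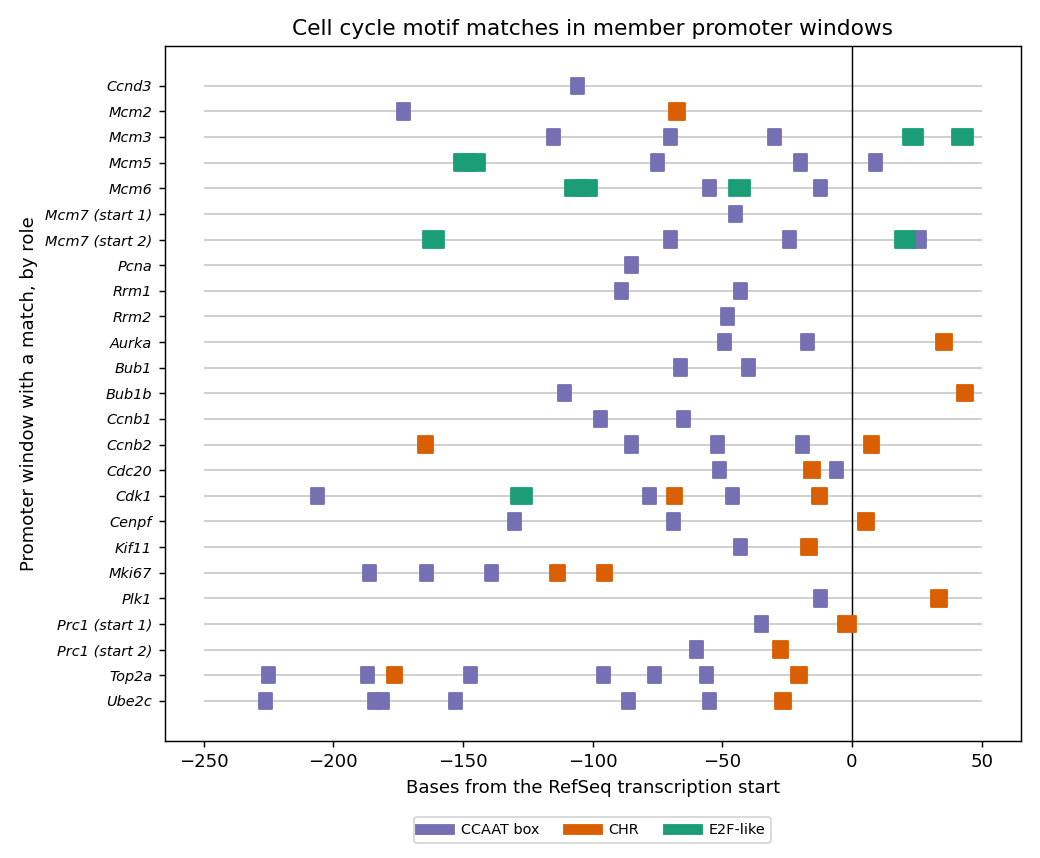
Map of the 3 kinds of motif in the promoter windows of the proliferation genes, with distance from the RefSeq start site in bases on the horizontal axis and 1 line per window. CHR marks lie in 13 of 17 windows of G2 and mitosis genes and in 1 of 10 S phase windows.

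None of the 36 proliferation genes differed between cold and ctrl past the threshold. Over all genes, edgeR's quasi-likelihood test called 516 of 17852 (2.89%) at a Benjamini-Hochberg adjusted p under 0.05, 415 higher in cold (2.32%) and 101 lower (0.566%). That count was 0 without ctrl 6, ctrl 10 or cold 12 (3114, 2823 and 2546 genes at an unadjusted p under 0.05), 3 without cold 16 and 1093 without cold 7. Of the 36 genes, 0 were called in either direction, the adjusted p ran from 0.212 to 0.994, and DESeq2 also called 0. At an unadjusted p under 0.05 there were 2 (Ccnd2 and Mcm7), beside 17.6% of all genes. The point estimates leaned to lower values in cold, with 29 of 36 below 0 beside 52.4% of all genes, and a median log2 fold change of -0.16 beside -0.01 over all genes. This lean depended on single mice. It was 20 of 36 without ctrl 6 (median -0.03) and 22 of 36 without cold 12 (median -0.09), but 33 of 36 without ctrl 10 or without cold 7. At a median of 4.21 CPM the members were lower than the 14.7 CPM of all tested genes, and their standard errors were wider, with a median of 0.256 beside 0.145 on the log2 scale.

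The intervals say what sizes of change these 6 libraries leave possible. The 95% interval of the fold change lay within 2-fold either way for 29 of the 36 genes, and within 1.5-fold for 12. Those 12 included all 3 D-type cyclins, all 3 G1/S genes and 5 of 10 S phase genes, but only 1 of 20 G2 and mitosis genes, Plk1. For the other 19 mitotic genes the interval reached past 1.5-fold, so a change of that size lay within it.

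**Figure D3:**
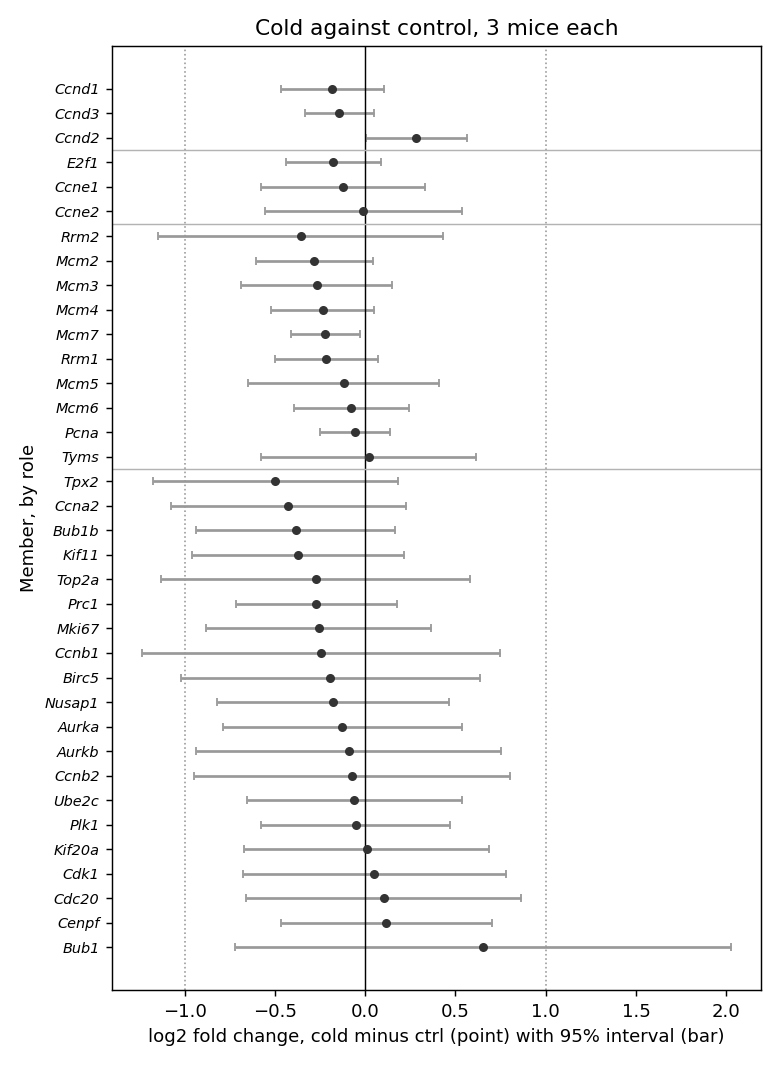
Log2 fold change of cold over ctrl for each of the 36 genes (points, edgeR) with its 95% interval (lines), ordered by role. All 36 have an adjusted p of 0.212 or more, and intervals are widest among the G2 and mitosis genes, where Bub1 runs from -0.72 to 2.03.

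Among the D-type cyclins, which link growth signals to the cycle, Ccnd2 was higher in the cold means and Ccnd1 and Ccnd3 lower, none past the threshold. Ccnd2 (chromosome 6, 127125162 to 127152193, GRCm38) was at 207, 172 and 231 CPM in ctrl 5, 6 and 10 and at 275, 226 and 242 CPM in cold 7, 12 and 16. Cold 7 was the highest of the 6 and ctrl 6 the lowest, and the groups overlapped because ctrl 10 lay above cold 12. Its log2 fold change was 0.28 (SE 0.121, 95% interval 0.01 to 0.56, unadjusted p = 0.0458, edgeR adjusted p = 0.271), and 0.18 when changes in mean transcript length were taken into account.

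Ccnd3 (chromosome 17, 47505051 to 47599691) was at 163, 166 and 169 CPM in ctrl and at 134, 159 and 158 CPM in cold. In CPM every cold library lay below every control, with cold 7 furthest down, a log2 fold change of -0.14 (SE 0.083, edgeR adjusted p = 0.449). In TPM the groups overlapped, at 145.8, 139.1 and 141.7 in ctrl and 115.3, 143.7 and 132.5 in cold. With transcript length taken into account the log2 fold change was -0.09 (edgeR adjusted p = 0.724). Non-overlap in CPM with cold lower was found in 11.0% of all genes and in 3 of the 36 (Ccnd3, Mcm2 and Mcm7). Non-overlap upward was found in 12.7% of all genes and in 0 of the 36. Ccnd1 (chromosome 7, 144929931 to 144939925) was at 69.6, 65.1 and 73.2 CPM in ctrl and at 51.3, 59.1 and 72.7 CPM in cold, where cold 16 lay inside the control range. Its log2 fold change was -0.18 (SE 0.124, edgeR adjusted p = 0.528). As a share of the D-type cyclin TPM, Ccnd2 made up 24.6% ± 3.43 in ctrl and 28.7% ± 4.58 in cold (SD, n = 3), and the smallest control share (21.5%) and the largest cold share (34.0%) came from the same libraries as its CPM extremes, ctrl 6 and cold 7.

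None of the 3 genes of entry into S phase was called, and all 3 intervals lay within 1.5-fold. E2f1, the activator of the S phase genes, was at 17.3, 18.2 and 16.6 CPM in ctrl and at 17.7, 14.2 and 14.3 CPM in cold. Cold 12 and 16 lay below all controls while cold 7 lay among them, and the log2 fold change was -0.18 (SE 0.115, edgeR adjusted p = 0.507). Ccne1, cyclin E1, was at 4.17, 5.94 and 4.11 CPM in ctrl and at 4.42, 4.33 and 4.33 CPM in cold. Ccne2, cyclin E2, was at 3.67, 6.21 and 3.85 CPM in ctrl and at 4.95, 4.09 and 4.61 CPM in cold. Ctrl 6 was the highest of the 6 libraries in all 3 genes. Without it the log2 fold change turned from -0.12 to 0.071 for Ccne1 and from -0.01 to 0.27 for Ccne2. With transcript length taken into account, the log2 fold change of Ccne2 was -0.39 (edgeR adjusted p = 0.671). Coding transcripts held 50.1 to 92.5% of the Ccne2 TPM in a library, so its small main estimate depends on how length is treated.

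The S phase genes had 9 of 10 point estimates below 0, beside 52.4% of all genes, and a median log2 fold change of -0.22. None was called (edgeR adjusted p 0.212 to 0.981). Mcm7 (chromosome 5, 138164583 to 138172422) came nearest. It was at 33.2, 37.7 and 35.0 CPM in ctrl and at 32.3, 29.3 and 29.4 CPM in cold, a mean of 35.3 ± 2.26 against 30.3 ± 1.70 (SD, n = 3). In CPM all cold libraries lay below all controls, with ctrl 5 and cold 7 close together. The log2 fold change was -0.22 (SE 0.083, 95% interval -0.41 to -0.03, unadjusted p = 0.0287, edgeR adjusted p = 0.212). In TPM the groups overlapped, at 28.7, 30.5 and 29.7 in ctrl and 30.2, 22.4 and 23.3 in cold. With transcript length taken into account the log2 fold change was -0.20 (edgeR adjusted p = 0.532).

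Mcm2, another subunit of the MCM2 to MCM7 helicase ring, was at 10.2, 12.1 and 10.0 CPM in ctrl and at 9.28, 7.75 and 9.53 CPM in cold. Its groups did not overlap either, and its log2 fold change was -0.28 (SE 0.142, edgeR adjusted p = 0.364). Mcm4 was at 15.7, 17.2 and 17.7 CPM in ctrl and at 16.6, 13.8 and 12.6 CPM in cold, with cold 7 inside the control range (log2 fold change -0.24, edgeR adjusted p = 0.393). Rrm1, which with Rrm2 makes deoxyribonucleotides, was at 20.9, 22.7 and 21.5 CPM in ctrl and at 22.3, 17.2 and 16.6 CPM in cold. Cold 7 was again level with the controls while cold 12 and 16 lay below them, and the log2 fold change was -0.22 (SE 0.125, edgeR adjusted p = 0.444).

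Pcna, the most abundant S phase gene (chromosome 2, 132249162 to 132253314), was at 51.7, 54.1 and 48.4 CPM in ctrl and at 54.2, 47.0 and 47.2 CPM in cold. The groups overlapped and the log2 fold change was -0.06 (SE 0.084, edgeR adjusted p = 0.805), with a 95% interval of the fold from 0.842 to 1.10. The remaining S phase genes ran from -0.36 for Rrm2 (SE 0.344) to 0.02 for Tyms, the thymidylate synthase (SE 0.261), and the 6 MCM subunits all had negative estimates, from -0.28 to -0.08.

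Cold 7 differed from the other cold libraries in these genes. It was the highest of the cold libraries in 8 of 10 S phase genes, beside 34.1% of all genes. Mcm3, chosen after its values were seen, was at 15.8, 15.1 and 14.4 CPM in ctrl, 16.4 in cold 7, and 9.83 and 11.4 CPM in cold 12 and 16. Without cold 7, its log2 fold change went from -0.27 to -0.51 with an edgeR adjusted p of 0.0563, that of Rrm1 from -0.22 to -0.37 (adjusted p = 0.0655), and 6 of the 36 genes reached an unadjusted p under 0.05 beside 19.2% of all genes, still with 0 called. Cold 7 is also the cold library with the lowest epithelial and motile cilium sums and the highest macrophage sum (1321 CPM, against 954 and 749.5 in cold 12 and 16). It had the highest adipocyte, lymphocyte, progenitor and fibroblast, mesothelial and male germ cell sums among the cold libraries as well. Its plasma cell sum was level with that of cold 16, and its endothelial sum lay between the others. The part of these in the order was not tested.

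The G2 and mitosis genes varied between mice of 1 group, and none was called (edgeR adjusted p 0.459 to 0.994). The median log2 fold change was -0.15, with 15 of 20 estimates below 0, beside 52.4% of all genes. No gene had groups that did not overlap, beside 11.0% of all genes lower in cold without overlap and 12.7% higher. Mki67 (chromosome 7, 135689784 to 135716361) was at 7.64, 10.1 and 5.13 CPM in ctrl and at 8.01, 5.03 and 6.15 CPM in cold. Ctrl 6 was about 2-fold above ctrl 10 and cold 12, the highest over the lowest being 2.01, and the means were 7.63 ± 2.48 and 6.40 ± 1.504 (SD, n = 3). Its log2 fold change was -0.26 (SE 0.271, edgeR adjusted p = 0.704).

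Tpx2, which loads Aurora A on the spindle, had the lowest estimate of the 36. It was at 2.89, 4.38 and 3.23 CPM in ctrl and at 3.11, 1.61 and 2.72 CPM in cold, where cold 7 lay inside the control range and cold 12 lowest. The log2 fold change was -0.50 (SE 0.297, 95% interval -1.18 to 0.18, edgeR adjusted p = 0.459). Bub1, a kinase of the spindle checkpoint, had the highest estimate on the smallest counts: 12, 19 and 6 counts in ctrl and 38, 14 and 13 in cold. Cold 7 alone was high, and the log2 fold change of 0.65 (SE 0.598, edgeR adjusted p = 0.651) turned to -0.15 without it.

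Bub1b, the checkpoint protein BubR1, was at 5.49, 6.12 and 3.54 CPM in ctrl and at 3.24, 4.33 and 4.05 CPM in cold (log2 fold change -0.39, SE 0.241, edgeR adjusted p = 0.487). Here cold 7 was the lowest library, while it was the highest cold library in 13 of the 20 mitotic genes, beside 34.1% of all genes. Ccna2, cyclin A2, was at 4.25, 5.32 and 2.57 CPM in ctrl and at 3.06, 2.56 and 3.42 CPM in cold (log2 fold change -0.43, SE 0.284, edgeR adjusted p = 0.514). Ctrl 10 lay with the cold libraries and the other controls above them. Kif11 was at 2.39, 3.44 and 2.26 CPM in ctrl and at 2.14, 1.77 and 2.34 CPM in cold (log2 fold change -0.37, SE 0.257, edgeR adjusted p = 0.530). Ctrl 6 alone stood above the rest, and the other libraries of the groups overlapped.

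The mitotic genes with estimates above 0, besides Bub1, were Cenpf (0.12), Cdc20 (0.10), Cdk1 (0.05) and Kif20a (0.01). Cdk1 was at 2.39, 2.23 and 1.49 CPM in ctrl and at 2.76, 1.42 and 2.20 CPM in cold, and Cdc20 at 2.93, 4.25 and 1.85 CPM in ctrl and at 3.81, 2.32 and 3.60 CPM in cold. Both overlapped widely. Estimates of the remaining 10 lay between -0.27 (Top2a and Prc1) and -0.05 (Plk1); they include the cyclins Ccnb1 (-0.25) and Ccnb2 (-0.08), the Aurora kinases Aurka (-0.13) and Aurkb (-0.09), the survivin gene Birc5 (-0.19), Nusap1 (-0.18) and Ube2c (-0.06). Top2a, chosen after its values were seen, was at 6.32, 7.60 and 4.77 CPM in ctrl, 8.32 in cold 7, and 3.38 and 3.84 CPM in cold 12 and 16, and its log2 fold change went from -0.27 to -0.79 without cold 7 (edgeR adjusted p = 0.107).

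**Figure D4:**
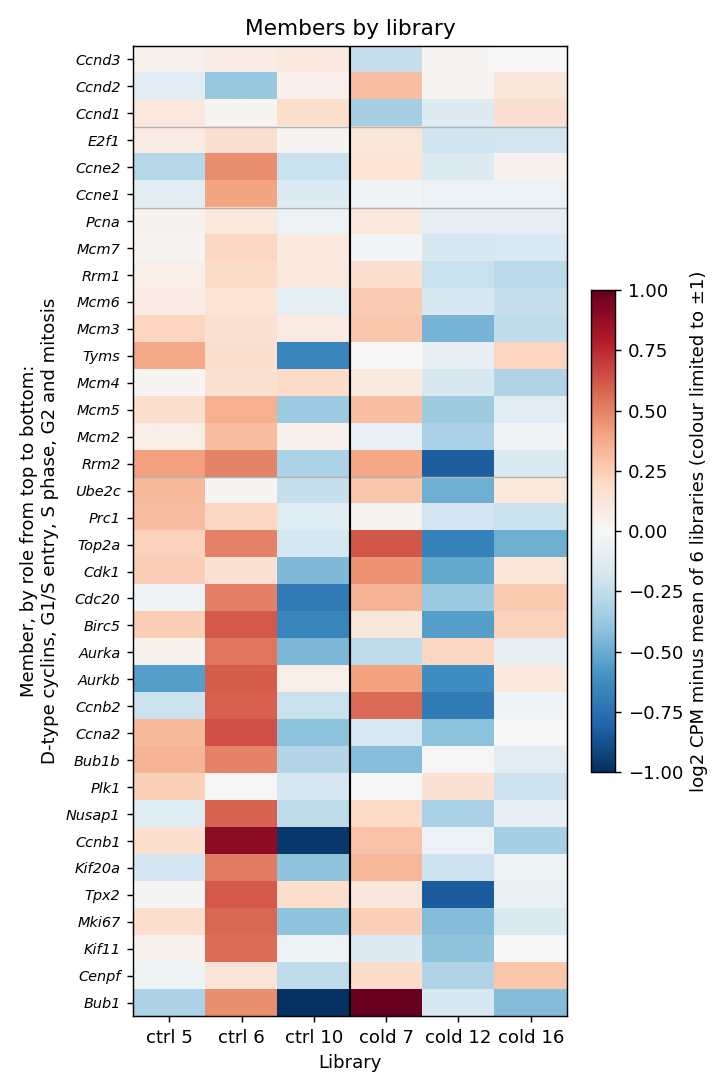
Heat map of the 36 genes by library, colored by log2 CPM minus the gene's mean over the 6 libraries. In the G2 and mitosis block ctrl 6 lies above the mean in 19 of 20 genes, and ctrl 10 and cold 12 lie below it in 18 of 20 each.

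Most mitotic genes were high in the same mice and low in the same mice: ctrl 6 was above the gene's mean in 19 of 20, cold 7 in 15, and ctrl 10 and cold 12 were below it in 18 each. Shares of all genes above or below their mean were not computed, here or for the S phase genes below. Genes of 1 library share its depth and scaling and do not count as repeats. The summed level of the 20 genes was 64.1, 81.8 and 48.2 CPM in ctrl 5, 6 and 10 and 68.1, 46.7 and 56.4 CPM in cold 7, 12 and 16. The exact Poisson 95% intervals, which cover counting error only, were 78.1 to 85.7 for ctrl 6 and 45.1 to 51.3 for ctrl 10. Ctrl 6 was highest, ctrl 10 and cold 12 lowest, and ctrl 5, cold 7 and cold 16 lay between. The groups overlapped in part, with ctrl 6 above all cold libraries and cold 12 below all controls. Averaged over the 20 genes as deviations from each gene's mean, the log2 values were 0.06, 0.46 and -0.35 in ctrl and 0.23, -0.35 and -0.06 in cold. The controls thus spanned 1.75-fold and the cold libraries 1.49-fold, while the group means differed by -0.11 on the log2 scale (SD 0.403 in ctrl and 0.288 in cold).

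The S phase genes showed a narrower version. Their summed level was 188, 201 and 177 CPM in ctrl and 193, 155 and 159.6 CPM in cold, with cold 12 and 16 below all controls and cold 7 among them. The mean deviations were 0.15, 0.23 and -0.10 in ctrl and 0.15, -0.29 and -0.14 in cold on the log2 scale, a span of 1.25-fold among controls and 1.35-fold among cold libraries, and a group difference of -0.18. Ctrl 5 and ctrl 6 were above the mean in 10 of 10 genes, cold 12 below it in 10 of 10 and cold 16 in 9 of 10. The D-type cyclins did not follow this order: their mean deviations stayed between -0.10 and 0.11, with ctrl 10 highest.

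In 32 other mitosis genes that are not among the 36 the mice had the same order, except that ctrl 10 and cold 12, which were level in the 20 members, were apart. Their mean deviations were 0.07, 0.36 and -0.23 in ctrl and 0.21, -0.36 and -0.05 in cold on the log2 scale, spans of 1.51-fold and 1.49-fold. Ctrl 6 was the highest control in 20 of 32 of them and in 16 of the 20 members, beside 34.6% of all genes, and ctrl 10 the lowest control in 21 of 32 and 18 of 20, beside 34.2%. Genes of 1 library share its depth and scaling, so these are not separate observations. The median log2 fold change of the 20 members was 0.11 without ctrl 6, with 9 of 20 below 0, and -0.34 without ctrl 10, so its direction rests on which control is kept.

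Markers of cells that can divide or enter the tissue did not share one order with the mitotic genes. The 10 macrophage markers summed to 1177, 1049 and 1038 CPM in ctrl and to 1321, 954 and 749.5 CPM in cold, and 10 lymphocyte markers to 56.0, 42.0 and 46.8 and to 49.3, 38.8 and 31.6 CPM, with 0 called in either list. The 8 progenitor and fibroblast markers summed to 2291 CPM in ctrl 6, the lowest control, and to 2665 and 2635 CPM in ctrl 5 and 10, and to 3020, 2192 and 2223 CPM in cold. The 8 endothelial markers summed to 1419, 1436 and 1496 CPM in ctrl and to 1209, 1189 and 1335 CPM in cold. Plasma cell markers (5) summed to 309, 245 and 319.6 CPM in ctrl and to 243, 255 and 243 CPM in cold, and 6 mesothelial markers to 252, 104 and 268 and to 276, 156 and 149 CPM, lowest in ctrl 6. The part of any of these cells in the mitotic level was not tested. Of 10 male germ cell markers, 6 were at 0 in at least 1 library. The list summed to 3.63, 9.92 and 6.98 CPM in ctrl and to 53.1, 44.4 and 12.9 CPM in cold.

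**Figure D5:**
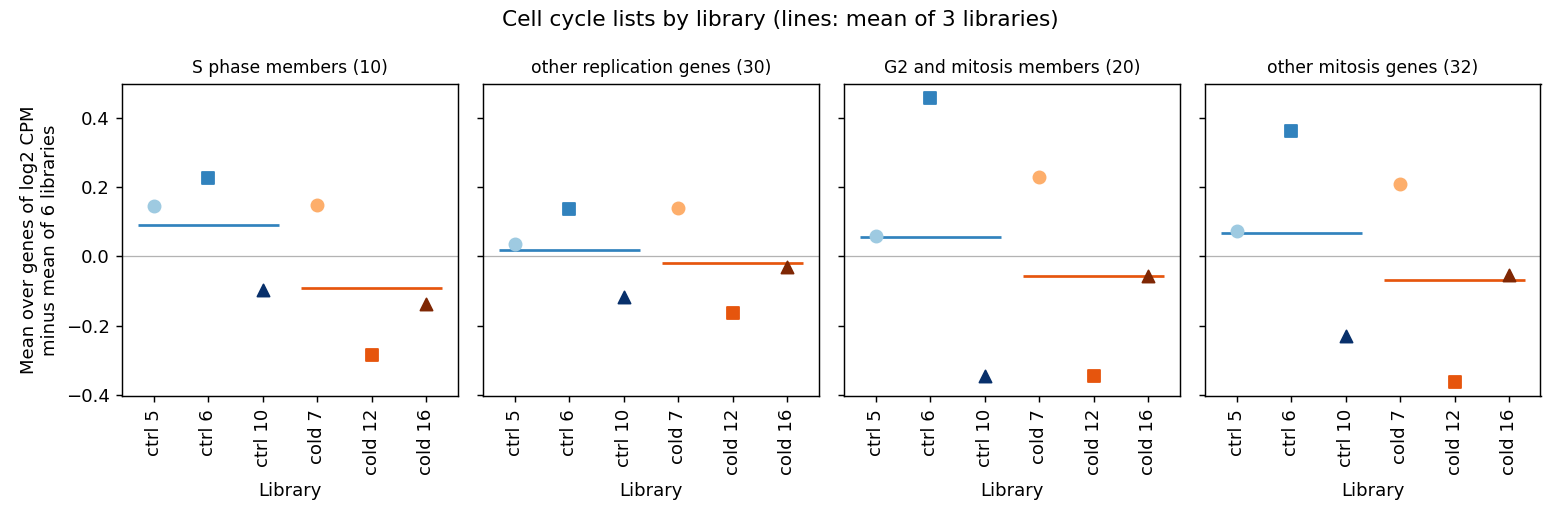
Mean deviation of each gene list from the genes' own means (log2) in the 6 libraries, 1 point per mouse and lines at the group means, for the S phase and the G2 and mitosis members and for the 30 other replication and 32 other mitosis genes. The G2 and mitosis genes run from -0.35 in ctrl 10 to 0.46 in ctrl 6, and the mean of cold minus that of ctrl is -0.11.

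In the rest of the cell cycle machinery 1 gene of 88 was called, beside 2.89% of all genes: Cdk6, the kinase partner of D-type cyclins. It is at chromosome 5, 3341485 to 3531008, and was at 12.6, 11.7 and 11.0 CPM in ctrl and at 17.3, 20.7 and 18.0 CPM in cold. All cold libraries lay above all controls, and the log2 fold change was 0.66 (SE 0.111, 95% interval 0.41 to 0.92, edgeR adjusted p = 0.0313). The call was lost without ctrl 6, ctrl 10, cold 12 or cold 16 (adjusted p 0.116, 0.123, 0.132 and 0.0705) and with transcript length taken into account (0.205), and over all alternatives the adjusted p ran from 0.000512 to 0.205 with the log2 fold change always between 0.60 and 0.77. Within the groups, ctrl 5 led the controls and cold 7 came last among the cold libraries, as in the epithelial and motile cilium sums and in 14.8% of all genes, and the part of that tissue in this value was not tested. The list of 26 kinases and members of the retinoblastoma and E2F pathway otherwise held no call, with a median log2 fold change of -0.10. Rb1, the retinoblastoma gene, was at 48.3, 50.4 and 53.8 CPM in ctrl and at 43.7, 43.8 and 45.5 CPM in cold, without overlap and not called (log2 fold change -0.20, edgeR adjusted p = 0.195). With transcript length taken into account the log2 fold change was -0.02 (edgeR adjusted p = 0.96). Of the 26 genes, 4 were lower in cold without overlap in CPM and 1 higher, beside 11.0% and 12.7% of all genes.

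Of the 30 other replication genes edgeR called 0 and 4 had an unadjusted p under 0.05, beside 2.89% and 17.6% of all genes, and their median log2 fold change was -0.04. Gins2, a subunit of the replication fork complex GINS, was at 29.4, 31.1 and 27.2 CPM in ctrl and at 19.7, 20.9 and 26.6 CPM in cold, a log2 fold change of -0.38 (edgeR adjusted p = 0.142). Pola2, a subunit of DNA polymerase alpha, was at 33.6, 33.8 and 31.8 CPM in ctrl and at 26.0, 25.4 and 30.8 CPM in cold (log2 fold change -0.27, edgeR adjusted p = 0.175). In both genes all cold libraries lay below all controls in CPM, with cold 16 close to them. Of the 30 genes, 4 were lower in cold without overlap and 4 higher, beside 11.0% and 12.7% of all genes.

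Of the 32 other mitosis genes edgeR called 0 and 1, Kif22, had an unadjusted p under 0.05, beside 17.6% of all genes, with a median log2 fold change of -0.16. Kif22, a chromosome motor, was at 3.47, 3.40 and 3.18 CPM in ctrl and at 2.63, 1.89 and 2.13 CPM in cold, without overlap, and was not called (log2 fold change -0.60, edgeR adjusted p = 0.193). Of the 32 genes, 6 were lower in cold without overlap and 0 higher, beside 11.0% and 12.7% of all genes. Racgap1, which acts in cytokinesis, was at 7.31, 7.73 and 5.08 CPM in ctrl and at 5.51, 4.72 and 4.75 CPM in cold, where ctrl 10 lay among the cold libraries (log2 fold change -0.43, edgeR adjusted p = 0.318). DESeq2 also called none of the other replication or mitosis genes.

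The deposited values are per transcript, and a gene's sum can hold transcripts that make no protein. The 36 genes have 204 transcripts in the files, of which 102 are annotated as coding, 64 as retained intron, 25 as processed transcript and 13 as targets of nonsense-mediated decay. Coding transcripts held 90% or more of the TPM in 24 of the 36 genes and under 50% in 2, Top2a (31.2%) and Tyms (32.2%). For Top2a, the short processed transcript Top2a-203 held 44.8% of the TPM but 13.4% of the counts, and the coding Top2a-201 held 75.5% of the counts. For Tyms, the decay target Tyms-205 held 43.4% of the TPM and 17.5% of the counts, and the coding Tyms-201 held 57.7% of the counts. The count-based comparison of these genes thus rests mainly on other transcripts than their TPM level does. Rrm1 was also split, with 54.6% of its TPM in coding transcripts and 35.1% in the decay target Rrm1-202. When mean transcript length in each library was taken into account, the log2 fold change of Rrm1 went from -0.22 to -0.04 (edgeR adjusted p = 0.952) and that of Mcm3 from -0.27 to -0.59, neither called. The D-type cyclins were each led by 1 coding transcript, Ccnd1-201 with 97.5%, Ccnd2-201 with 87.8% and Ccnd3-205 with 82.5% of the TPM.

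Exons of 12 of the 36 genes overlap exons of a gene on the other strand, by 53 bases for Cdc20 and Elovl1 and up to 1271 bases for Kif20a and Cdc23. Among the D-type cyclins, Ccnd2 shares 368 and 372 bases with 2 antisense genes, Ccnd1 1100 bases with LTO1 and Ccnd3 361 bases with Bysl, and Mcm7 shares 321 bases with Ap4m1. The libraries were strand-specific, but no source used here says whether counting used the strand, so reads of such pairs may not be separated. One pseudogene copy drew counts of the order of its parent's: Ccnb2-ps had 46, 25 and 26 counts in ctrl and 16, 22 and 38 in cold, against 40, 65 and 32 and 65, 30 and 54 for Ccnb2, so the level of Ccnb2 is uncertain. Other named copies (Ccnd3-ps, Pcna-ps1, Pcna-ps2, Tyms-ps and Ccnb1-ps) had 0 to 9 counts in a library.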

How the data were processed

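The submitters' processing notes name bcl2fastq, cutadapt, Salmon and build GRCm38 (versions and settings: not given in the sources used here). Per the file headers, the authors deposited for 140658 transcripts an estimated count, which need not be whole, a TPM value and an effective length for each of the 6 libraries. Of the identifiers, 140137 matched GENCODE M21; the other 521, with 0.124 to 0.394% of a library's counts, were left out. Estimated counts were summed per gene and rounded. TPM was summed per gene and not tested.

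Genes passed filterByExpr (minimum count 10, minimum total 15) and were tested with edgeR 4.0.16 under R 4.3.3 (TMM factors 0.978 to 1.016, glmQLFit robust, glmQLFTest, two-sided, no covariate), cold against ctrl over all 6 libraries. Benjamini-Hochberg adjustment ran over all 17852 genes, and an adjusted p under 0.05 was a call. Log2 fold changes are cold over ctrl, SE is taken from the quasi-likelihood statistic, and CPM uses TMM-scaled sizes. An exact permutation test of 3 against 3 libraries cannot go below p = 0.10 and was not used. The procedure was tested on simulated data. The alternatives were DESeq2 1.42.0, RLE factors, no filter, a transcript length offset, and leaving out each library or ctrl 5 with cold 7.

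The 36 members and all lists were chosen with earlier results of these data known. Values in every library were given for up to 4 members with the smallest p in each role, the 3 highest in TPM and the largest estimate either way, and for called genes and up to 2 with the smallest p in other cell cycle lists; Mki67, Cdk1, Cdc20, Mcm3 and Top2a were added after their values were seen, as were the fold changes of Aspm. Promoters are from RefSeq, and proteins were not analysed here.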

Additional observations from a re-analysis of the deposited data

How the results depend on the processing

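No proliferation gene was called in either direction under any alternative run; the smallest adjusted p was 0.0563, without cold 7. Over all genes the calls moved widely. Higher calls (415) became 696 with no filter, 1133 with DESeq2 and 1145 without ctrl 5 and cold 7; leaving out 1 library gave 0 to 930. Lower calls (101) became 228 with no filter, 58 with the transcript length offset and 297 with DESeq2; leaving out 1 library gave 0 to 163. Calls were 0 without ctrl 6, ctrl 10 or cold 12, where 3114, 2823 and 2546 genes had an unadjusted p under 0.05, so 0 called members says little there. The 1 higher call among other cell cycle genes, Cdk6, became 0 with the length offset and 0 to 1 leaving out a library. The 0 lower calls became 1 with the length offset, Aspm (-2.87, against -0.21), a gene with about 1 CPM; the cause was not tested. Leaving out 1 library turned the sign for Ccne1 (-0.22 to 0.071; positive without ctrl 6), Ccne2 (-0.14 to 0.27; positive without ctrl 6 or cold 12), Bub1 (-0.15 to 1.10; negative without cold 7) and Aspm (-0.77 to 0.013; positive without cold 7). Leaving out ctrl 5 and cold 7 gave -0.22 for Bub1 and 0.053 for Aspm. The median of the 36 was -0.27 to -0.03 over all alternatives, that of S phase genes -0.33 to -0.09, and that of G2 and mitosis genes -0.34 to 0.11. No paired analysis was possible because the mouse numbers of the groups are all different. Mitotic genes had 6 to 226 counts in a library.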
